A study of Mus musculus with 12 samples.

Results

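Chromatin accessibility was examined at 7 genes of the T helper 1 (Th1) programme, Tbx21, Eomes, Stat4, Il18r1, Il18rap, Ifng and Cxcr3, in mouse CD4+ T cells driven toward 2 other fates. ATAC-seq, in which the transposase Tn5 cuts and tags open DNA, gave the counts. A peak, a region called open, was counted to the gene whose protein-coding model was nearest within 100 kb, and this put 45 of the 48443 peaks at the 7 genes. Ifng had 13 of them, Stat4 12, Eomes 5, Il18r1 5, Tbx21 4, Il18rap 4 and Cxcr3 2. Of the 45 peaks, 6 lay within 1 kb of an end of the gene model, 18 inside it and 21 outside. Which of these genes each region acts on was not measured.

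All 4 groups began as naive CD4+ T cells (CD44- CD62L+ CD25-) sorted from the spleens of C57BL/6 mice labelled WT, and all were activated for 68 h on plate-bound anti-CD3 and anti-CD28 (1 µg/ml of each antibody) with 2 ng/ml TGF-beta1. The cells named Th17n, the non-pathogenic form of T helper 17 cells, also had 25 ng/ml IL-6, and the cells named iTreg (induced regulatory T cells) had none. Each fate was cultured with vehicle or with 100 µM DFMO, difluoromethylornithine, which blocks ornithine decarboxylase, the enzyme that opens polyamine synthesis. Each of the 4 groups had 3 libraries, from animals numbered 1 to 3, and the live cells were frozen and thawed before tagmentation. The groups contain no Th1 culture, so the level of these peaks in Th1 cells is not given by these data.

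Th1 cells arise when IL-12 acts through the signal transducer STAT4 and when interferon-gamma and the antigen receptor induce T-bet, the T-box factor encoded by Tbx21. T-bet, helped in many lymphocytes by its relative eomesodermin (Eomes), promotes transcription of Ifng, the gene of interferon-gamma, and of Cxcr3, a chemokine receptor that directs cells to inflamed tissue. IL-18, sensed by a receptor made of Il18r1 and Il18rap, raises interferon-gamma output together with IL-12. TGF-beta is known to restrain this programme in CD4+ T cells.

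The start of Tbx21, of Il18rap, of Cxcr3 and of the first start sites of Il18r1 lay under a peak, whereas no peak covered the start of Ifng, Eomes or Stat4. The 250 bases before 5 starts, from RefSeq on GRCm38.p6 (the assembly of mm10, the build of the peaks), show what lay under or outside these peaks. All 5 are written 5′ to 3′ along the gene, in lower case with motif matches in capitals. 4 motifs were searched on both strands: the T-box core GGTGTGA, the STAT motif TTCNNNGAA, the AP-1 motif TGANTCA and the Runx core TGTGGT. Over 32851 mouse promoter windows of this length, 3.33%, 7.02%, 6.75% and 14.0% hold them.

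The Tbx21 window (chr11:97115332-97115581, minus strand) lay wholly under the Tbx21 start peak and holds none of these motifs.
Tbx21: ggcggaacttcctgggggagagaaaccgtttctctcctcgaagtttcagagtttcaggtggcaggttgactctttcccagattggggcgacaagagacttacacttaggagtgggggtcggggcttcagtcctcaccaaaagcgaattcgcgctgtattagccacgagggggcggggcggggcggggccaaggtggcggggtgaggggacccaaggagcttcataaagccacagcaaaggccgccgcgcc
The windows of the first 2 annotated starts of Il18r1, not printed, had 33 and 102 bases under the Il18r1 start peak and hold none. The window of the third (chr1:40465756-40466005, plus strand) had 176 of its bases under that peak, although no peak covered the third start itself. It holds 2 STAT matches, which begin 219 and 152 bases before the start.
Il18r1: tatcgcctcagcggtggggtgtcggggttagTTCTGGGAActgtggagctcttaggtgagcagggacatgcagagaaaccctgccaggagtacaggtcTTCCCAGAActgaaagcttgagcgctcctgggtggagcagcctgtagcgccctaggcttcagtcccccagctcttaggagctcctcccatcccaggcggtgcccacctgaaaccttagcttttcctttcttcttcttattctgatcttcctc
The Il18rap window (chr1:40515112-40515361, plus strand), with 230 bases under a peak, holds none.
Il18rap: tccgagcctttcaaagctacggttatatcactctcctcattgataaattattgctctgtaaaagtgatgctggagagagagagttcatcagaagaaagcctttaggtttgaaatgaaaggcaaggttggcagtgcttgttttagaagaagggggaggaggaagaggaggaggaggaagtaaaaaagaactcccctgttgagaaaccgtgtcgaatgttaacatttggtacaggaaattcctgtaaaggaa
The Cxcr3 window (chrX:101734148-101734397, minus strand), with 143 bases under a peak, holds 1 Runx core on the opposite strand, 110 bases before the start.
Cxcr3: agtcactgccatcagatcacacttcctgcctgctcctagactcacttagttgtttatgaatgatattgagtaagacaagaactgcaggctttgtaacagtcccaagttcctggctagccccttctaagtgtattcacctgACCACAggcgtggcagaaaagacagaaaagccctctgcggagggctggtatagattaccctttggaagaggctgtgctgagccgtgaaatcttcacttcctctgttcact
The Ifng window (chr10:118440796-118441045, plus strand), with no base under a peak, holds 1 STAT match, 249 bases before the start.
Ifng: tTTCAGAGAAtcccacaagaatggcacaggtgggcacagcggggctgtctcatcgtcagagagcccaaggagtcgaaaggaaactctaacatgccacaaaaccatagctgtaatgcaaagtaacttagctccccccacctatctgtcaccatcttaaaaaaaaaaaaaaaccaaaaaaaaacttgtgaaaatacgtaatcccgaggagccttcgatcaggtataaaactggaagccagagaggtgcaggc
The windows of Eomes and of the 2 Stat4 starts, not printed, had no base under a peak and hold none of the 4 motifs. These letters are a description of the windows, and factor binding was not measured.

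Libraries held 1020937 to 6496550 counts over all peaks, and a Th1 gene peak had between 0 and 187 counts in a library (median 18). The 45 peaks had a median level of 7.37 CPM (counts divided by the library total and multiplied by 1e6), against 9.96 over all peaks, with single peaks from 1.70 to 22.6. Of the 45, 42 passed the filter on low counts, and Ifng peaks at 10.9 and 20.6 kb and a Stat4 peak at 32.5 kb did not. The peaks of 4 T cell marker genes summed to 588 to 594 CPM in vehicle Th17n, 576 to 614 in DFMO Th17n, 544 to 579 in vehicle iTreg and 496 to 532 in DFMO iTreg. That list was thus lower in every DFMO iTreg library than in any vehicle iTreg library, and its part in the iTreg results below was not tested. Those of 4 regulatory T cell markers (Foxp3, Il2ra, Ctla4 and Ikzf2) summed to 1020 to 1110 CPM in vehicle Th17n and 897 to 948 in DFMO Th17n. They summed to 937 to 1020 CPM in vehicle iTreg and 747 to 922 in DFMO iTreg, so this sum was not higher in the cells labelled iTreg. Of the list's 39 peaks in the test described below, 8 were called higher and 11 lower in Th17n than in iTreg with vehicle. With DFMO 13 were higher and 8 lower. Of all tested peaks 25.2% were higher and 19.3% lower with vehicle, and 22.5% and 14.7% with DFMO. Of 8 cytotoxic T and NK cell markers, of cells that also use Tbx21, Eomes and Ifng, 4 had a peak, and Cd8a, Ncr1, Klrd1 and Gzma had none. The summed level of that list was 117 to 131 CPM in vehicle Th17n, 99 to 138 in DFMO Th17n, 109 to 127 in vehicle iTreg and 139 to 151 in DFMO iTreg. It was therefore higher in every DFMO iTreg library than in any vehicle iTreg library, and its part in the results below was not tested. Pax5 was the sole gene of 5 B cell markers with a peak (18.6 to 50.3 CPM over all libraries), and 5 of 5 myeloid markers had one (62.1 to 105 CPM). In bulk libraries such as these, fewer cells with an open region and a less open region in each cell cannot be told apart.

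Accessibility summed over the peaks of a gene was lower with DFMO at Stat4 in both fates, while Il18rap differed between the fates. These sums are levels in CPM and were not tested. At Stat4 the vehicle Th17n libraries had 161, 139 and 126 CPM and the DFMO Th17n libraries 111, 114 and 94.4. The vehicle iTreg libraries had 117, 170 and 161 CPM and the DFMO iTreg libraries 85.7, 103 and 94.4. Every DFMO library was thus below every vehicle library of its fate. Il18rap differed from vehicle in opposite directions. Its sums were 25.5, 40.0 and 34.9 CPM in vehicle Th17n, and 47.1, 49.3 and 53.4 with DFMO. In iTreg they were 35.3, 34.2 and 37.0 CPM with vehicle, and 21.1, 31.3 and 22.0 with DFMO. No DFMO library overlapped the vehicle libraries of its fate, being above in Th17n and below in iTreg. Such a gap was not particular to Stat4 and Il18rap. Every DFMO library was also below every vehicle library at Tbx21 in Th17n and at Eomes and Cxcr3 in iTreg. The sum over all 7 genes was below vehicle in this way in both fates. The share of all genes with such a gap is not given here.

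The sums of Eomes and Il18r1 did not overlap between the fates under either treatment. Eomes summed to 55.5 ± 16.6 CPM (SD, n = 3) in vehicle Th17n, 44.0 ± 6.03 in DFMO Th17n, 88.2 ± 5.18 in vehicle iTreg and 70.3 ± 6.11 in DFMO iTreg. Within each treatment every iTreg library was above every Th17n library. Il18r1 summed to 31.3 ± 8.53, 27.3 ± 7.17, 70.3 ± 3.58 and 65.8 ± 13.8 CPM in the same order, with every iTreg library above every Th17n library. For Ifng the means were 82.6 ± 6.71, 86.4 ± 11.7, 98.3 ± 7.36 and 93.5 ± 12 CPM. The DFMO and vehicle libraries of Ifng overlapped in both fates. With vehicle every Th17n library of Ifng was below every iTreg library (at most 90.1 against at least 90.5 CPM), and with DFMO the fates overlapped. Il18rap was higher in every DFMO Th17n library than in any DFMO iTreg library. The sum over all 7 genes was lower in every vehicle Th17n library than in any vehicle iTreg library. The share of all genes with such a gap between the fates is not given here. Tbx21 had 52.6 ± 1.38, 47.6 ± 5.77, 48.1 ± 5.07 and 40.1 ± 4.73 CPM, highest in vehicle Th17n and lowest in DFMO iTreg, and the 2 groups between did not differ beyond their spread. Cxcr3 had 11.0 ± 3.76 and 11.7 ± 3.45 CPM with vehicle in Th17n and iTreg, and 6.90 ± 0.744 and 6.71 ± 0.295 with DFMO, where libraries overlapped vehicle in Th17n but not in iTreg. Per kilobase of peak, a scale on which genes can be compared, vehicle iTreg levels ran from 17.1 ± 1.80 CPM at Tbx21 to 33.5 ± 1.71 at Il18r1.

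**Figure D1:**
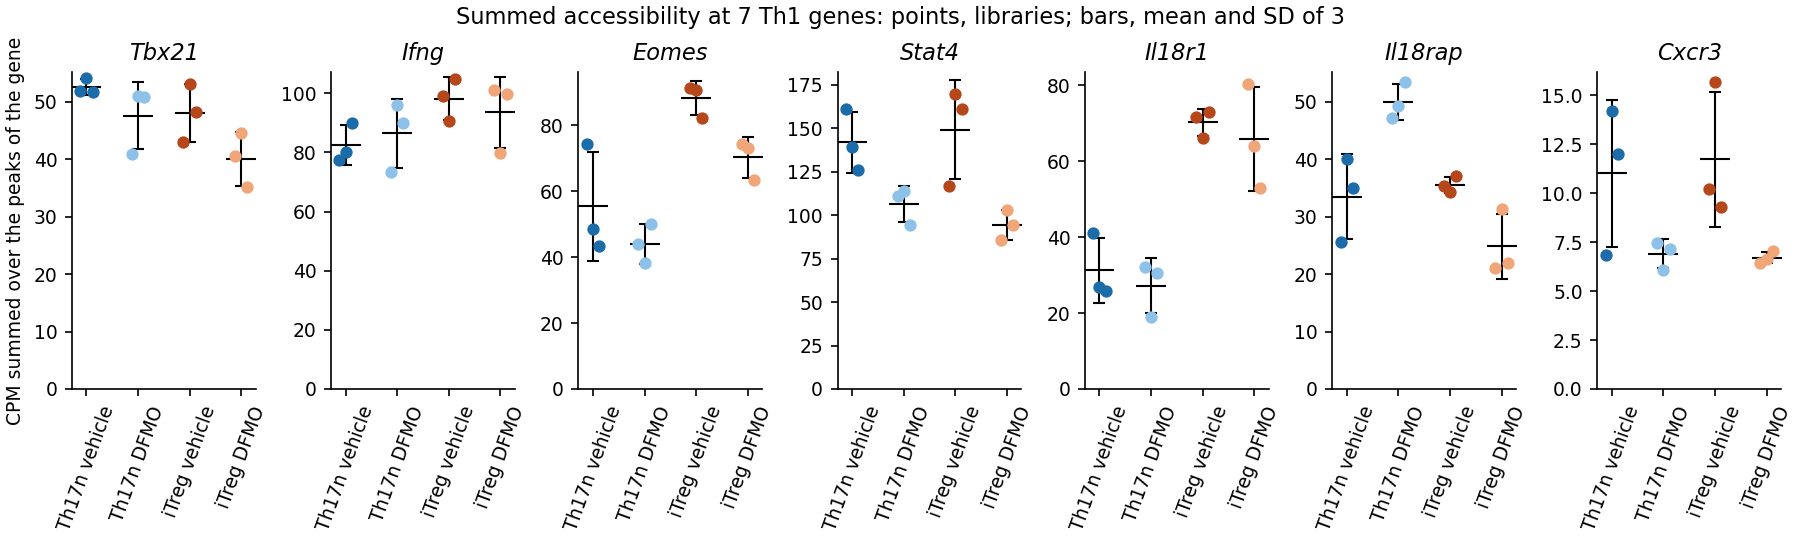
Accessibility summed over the peaks of each of the 7 genes, in CPM (vertical axis, from 0), in the 4 groups. Points are libraries, the long line is the mean of 3 and the bars are SD. Stat4 is lower with DFMO in both fates, and Il18rap is higher with DFMO in Th17n and lower in iTreg.

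Single peaks were tested with edgeR's quasi-likelihood test over all 43726 peaks that passed the filter, with Benjamini-Hochberg adjustment and a threshold of 0.05, and the adjusted p-values and log2 changes ± SE below come from that test. DFMO against vehicle in Th17n gave 1 higher and 2 lower of the 42 tested Th1 gene peaks (7.14%). Of all tested peaks 8.78% were called, 4.5% higher and 4.28% lower. In iTreg it gave 0 higher and 5 lower (11.9%). Of all tested peaks 8.56% were called there, 3.84% higher and 4.72% lower. At an unadjusted p under 0.05, 2 peaks were higher and 11 lower in iTreg, beside 9963 of all 43726 tested peaks in either direction. In Th17n 4 were higher and 3 lower, beside 10138 of all. DESeq2 called 0 higher and 3 lower in iTreg, beside 1591 and 1604 of all 48443 peaks. In Th17n it called 0 higher and 1 lower, beside 1510 and 1645 of all. The median log2 change of the 42 was -0.07 in Th17n and -0.30 in iTreg, beside 0.01 and -0.01 over all tested peaks. The share of calls in Th17n was near that of all peaks. Stat4 held 1 of the 3 calls in Th17n and 4 of the 5 in iTreg.

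**Figure D2:**
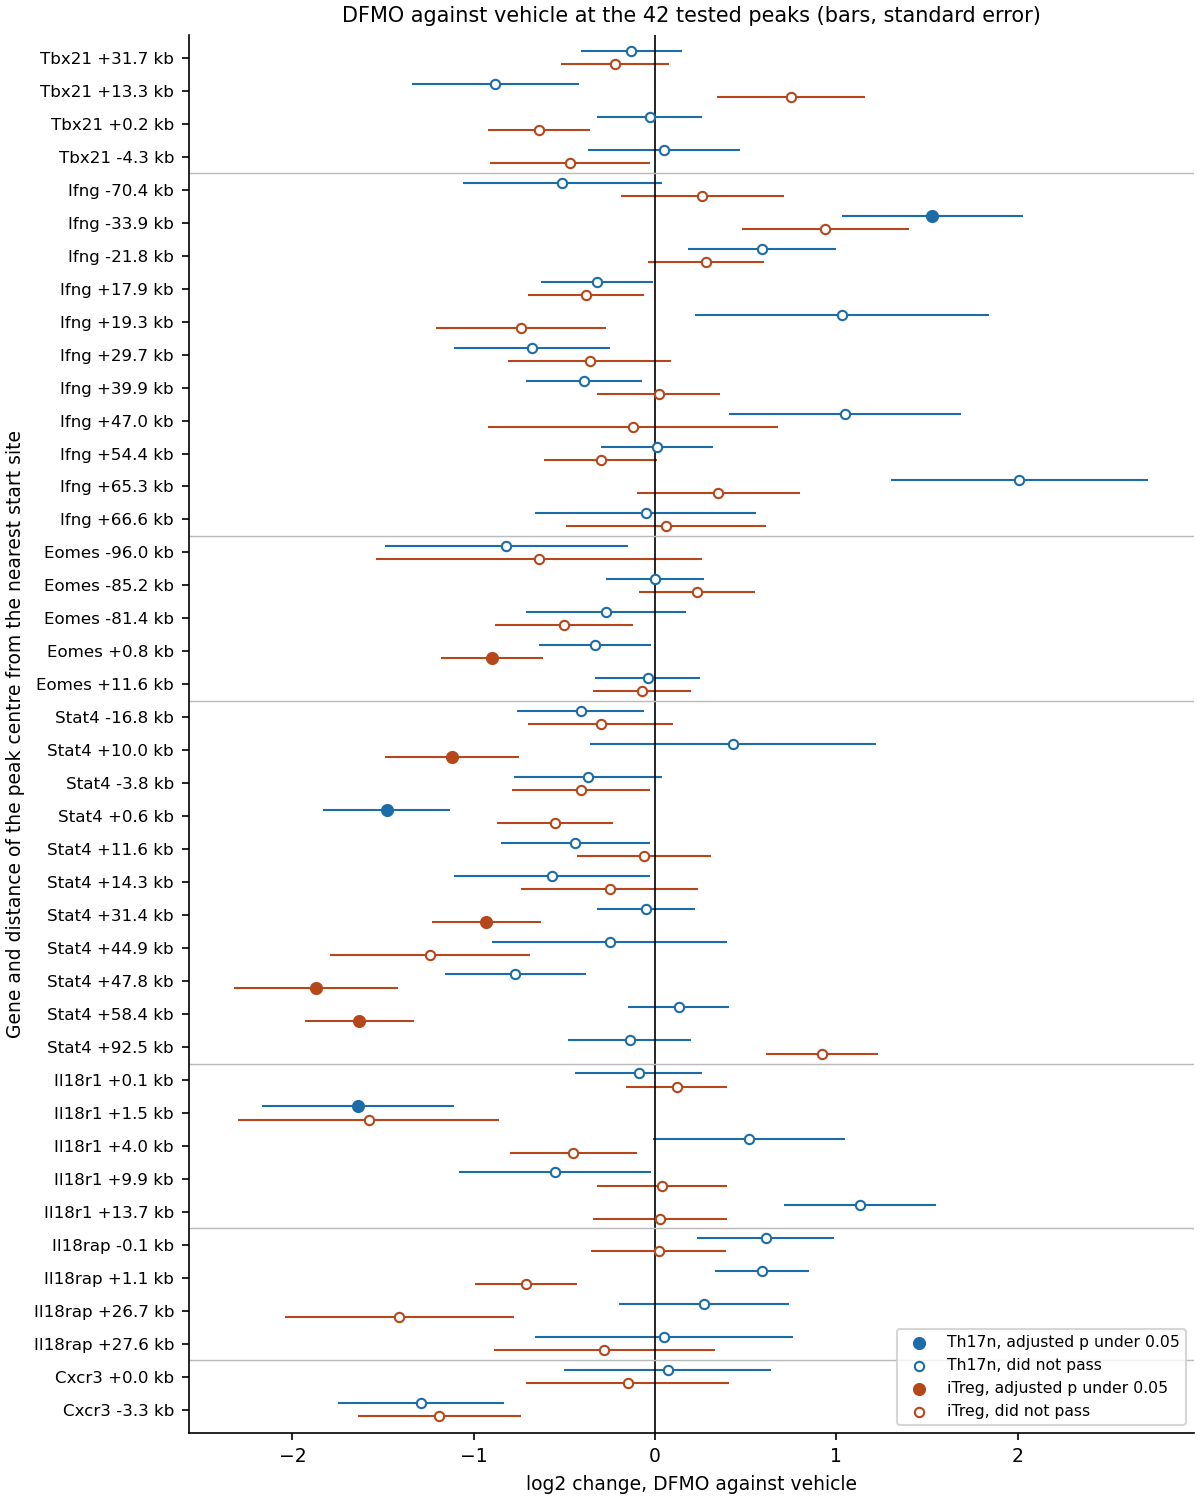
log2 change with DFMO against vehicle (horizontal axis, bars are standard errors) at the 42 tested peaks, by gene and by distance of the peak centre from the nearest annotated start in kb. Filled points passed an adjusted p of 0.05: 3 in Th17n (blue) and 5 in iTreg (orange), of which 4 iTreg points are at Stat4.

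The 12 Stat4 peaks, 11 of them inside the gene, included 5 whose fall with DFMO passed in 1 of the fates only. Passing in 1 fate does not by itself show that the fates differed. The test of the difference between the fates passed at 1 of the Stat4 peaks, given below. Stat4 has 2 annotated starts, and distances below run from the nearer. Nearest to the internal start, at 0.6 kb (chr1:52008517-52009165), the vehicle Th17n libraries had 35.3, 17.5 and 18.2 CPM and the DFMO Th17n libraries 10.4, 5.19 and 6.51. No DFMO library reached the lowest vehicle library, and vehicle library 1 was well above the other 2. The peak fell by 1.48 ± 0.35 on the log2 scale (adjusted p = 0.0041), and its adjusted p stayed at or under 0.031 whichever library was left out. In iTreg the same region had 14.8, 22.4 and 12.7 CPM with vehicle and 14.1, 7.59 and 12.3 with DFMO. These overlapped, with a log2 change of -0.55 ± 0.32 (adjusted p = 0.32). The difference between the fates was not shown for this region (log2 -0.94 ± 0.48, adjusted p = 0.38).

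Deeper in Stat4, at 58.4 kb (chr1:52066325-52067032), was its most accessible peak. It had 20.5, 36.8 and 37.8 CPM in vehicle iTreg and 4.70, 18.0 and 8.21 in DFMO iTreg. The groups did not overlap, although DFMO library 2 and vehicle library 1 came close to each other. The peak fell by 1.63 ± 0.30 on the log2 scale (adjusted p = 0.00027, and at most 0.011 with any 1 library left out). In Th17n it had 22.5, 24.5 and 18.2 CPM with vehicle and 23.7, 22.1 and 24.7 with DFMO, 2 sets that overlapped (log2 0.13 ± 0.28, adjusted p = 0.84). The difference between the fates was tested directly. The DFMO change in Th17n minus that in iTreg was 1.76 ± 0.41 (adjusted p = 0.018), the 1 interaction called among the 42 peaks (2.38%), against 1.31% of all tested peaks. This call did not hold without Th17n DFMO library 1, Th17n vehicle library 3, iTreg DFMO libraries 1 or 3, or iTreg vehicle libraries 2 or 3 (adjusted p 0.062 to 0.093), nor when all libraries were thinned to the smallest total (0.18).

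At 3 other Stat4 peaks a fall in iTreg rested on less firm calls. At 47.8 kb (chr1:52055667-52056362) vehicle iTreg libraries had 4.09, 17.0 and 15.4 CPM and DFMO iTreg libraries 0.587, 6.64 and 2.93. DFMO library 2 lay above vehicle library 1, so the groups overlapped. The fall was 1.87 ± 0.45 on the log2 scale (adjusted p = 0.0058), and the call was lost without iTreg DFMO library 3 (0.062) or iTreg vehicle library 2 (0.055). In Th17n this peak had 27.4, 16.6 and 15.0 CPM with vehicle and 13.0, 11.7 and 5.86 with DFMO, which did not overlap but did not pass (log2 -0.77 ± 0.39, adjusted p = 0.22). At 10.0 kb from the first start (chr1:51996908-51997461) the iTreg values were 19.9, 15.9 and 17.0 CPM with vehicle and 4.70, 8.07 and 9.96 with DFMO. These stood well apart (log2 -1.12 ± 0.37, adjusted p = 0.046), yet the adjusted p was 0.053 to 0.19 without any 1 of 9 libraries, namely all 6 of iTreg, Th17n vehicle 2 and 3 and Th17n DFMO 1. It was 0.052 with the animal as a replicate block. At 31.4 kb (chr1:52039201-52040022) the vehicle iTreg libraries had 10.7, 20.2 and 25.1 CPM and the DFMO iTreg libraries 7.04, 12.3 and 10.3. The groups overlapped, and the fall of 0.93 ± 0.30 on the log2 scale (adjusted p = 0.042) was lost without any 1 of iTreg vehicle 2 or 3, iTreg DFMO 1 or 3, Th17n vehicle 2 or 3 or Th17n DFMO 1 (0.055 to 0.29). A difference between the fates was not shown at these 3 peaks. In the order above the interaction was 1.10 ± 0.60, 1.55 ± 0.90 and 0.89 ± 0.41 (adjusted p = 0.42, 0.46 and 0.31).

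A further Stat4 region leaned the other way. At 92.5 kb (chr1:52100456-52100961) the iTreg libraries had 15.9, 15.3 and 6.87 CPM with vehicle and 29.9, 19.9 and 19.9 with DFMO. Every DFMO library was above every vehicle library, with a log2 change of 0.92 ± 0.31 that just missed the threshold (adjusted p = 0.053). Of the 11 tested Stat4 peaks, 10 had a negative log2 change in iTreg and 9 in Th17n, where 22164 and 21514 of all 43726 tested peaks did.

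**Figure D3:**
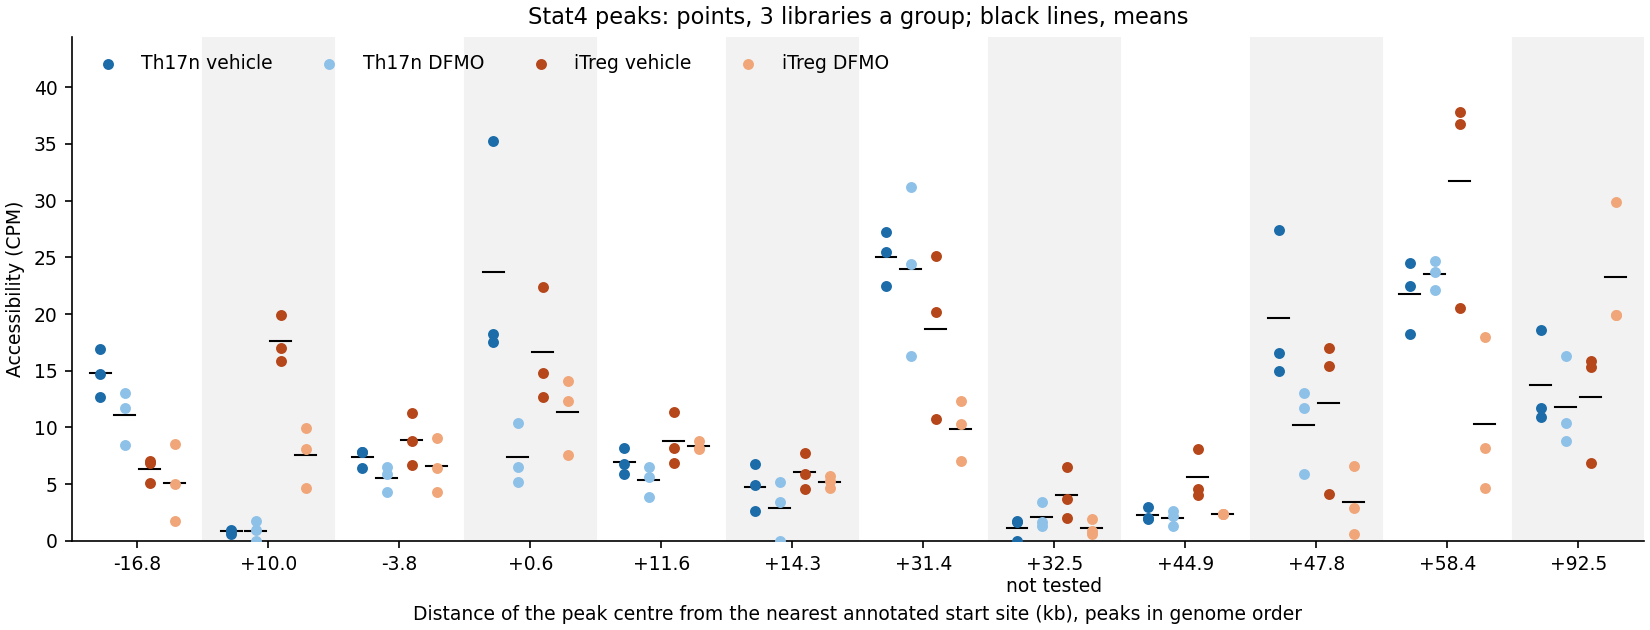
Level of each of the 12 Stat4 peaks in CPM (vertical axis, from 0), in genome order, labelled by the distance in kb from the nearest annotated start. Points are libraries and black lines are group means. The peak at 10.0 kb is near 0 in Th17n and between 4.70 and 19.9 CPM in iTreg, and the peak at 58.4 kb has its lowest group mean, 10.3 CPM, in DFMO iTreg.

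The fates differed at Stat4 in vehicle libraries as well, and these contrasts share libraries with the DFMO contrasts above. The clearest difference among all 42 peaks was at the 10.0 kb region, where the 6 Th17n libraries had 0 to 1.73 CPM and the 6 iTreg libraries 4.70 to 19.9. With vehicle the log2 difference, Th17n minus iTreg, was -4.54 ± 0.51 (adjusted p = 5.3e-10), and with DFMO -2.99 ± 0.57 (4e-05). Upstream of the gene, at 16.8 kb before the first start (chr1:51970079-51970538), vehicle Th17n libraries had 12.7, 16.9 and 14.7 CPM and vehicle iTreg libraries 5.11, 6.88 and 7.08. Th17n was higher there (log2 1.15 ± 0.35, adjusted p = 0.0064). With DFMO the difference was 1.03 ± 0.40 (0.037), lost without Th17n DFMO 1 or 2 or iTreg DFMO 1 or 3 (0.099 to 0.22). The regions at 31.4, 47.8 and 58.4 kb were higher in Th17n than in iTreg under DFMO (log2 1.21 ± 0.31, 1.54 ± 0.48 and 1.11 ± 0.32, adjusted p = 0.0016, 0.0099 and 0.0044). The second call was lost without Th17n DFMO 1 or iTreg DFMO 1 or 3 (0.063 to 0.068) and the third without iTreg DFMO 3 (0.055). With vehicle the first 2 did not differ beyond the spread (0.34 and 0.34), while the third was lower in Th17n (-0.65 ± 0.27, 0.043). That call was lost without Th17n vehicle 1, 2 or 3, iTreg vehicle 2 or 3 or Th17n DFMO 1 or 2 (0.061 to 0.25). The 92.5 kb region was lower in Th17n under DFMO (-1.07 ± 0.33, 0.0082, and 0.063 without Th17n DFMO 1). At 44.9 kb (chr1:52052948-52053237) Th17n was lower with vehicle (2.30 ± 0.553 against 5.59 ± 2.18 CPM, log2 -1.34 ± 0.53, 0.037), a call lost without Th17n vehicle 1, 2 or 3 (0.073 to 0.18) and with the replicate block (0.053).

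Across the 7 genes, Th17n against iTreg gave 5 higher and 13 lower peaks of 42 with vehicle (42.9%), against 44.6% of all tested peaks. With DFMO it gave 8 higher and 11 lower (45.2%), against 37.2% of all. The total was thus near that of all peaks with vehicle. Lower calls made up 31.0% of the Th1 gene peaks with vehicle and 19.3% of all tested peaks, and higher calls 11.9% and 25.2%. The median log2 difference was -0.39 with vehicle and -0.27 with DFMO, beside -0.07 and 0 over all tested peaks. Of the 18 vehicle calls 12 held whichever library was left out, and of the 19 DFMO calls 11 did.

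**Figure D4:**
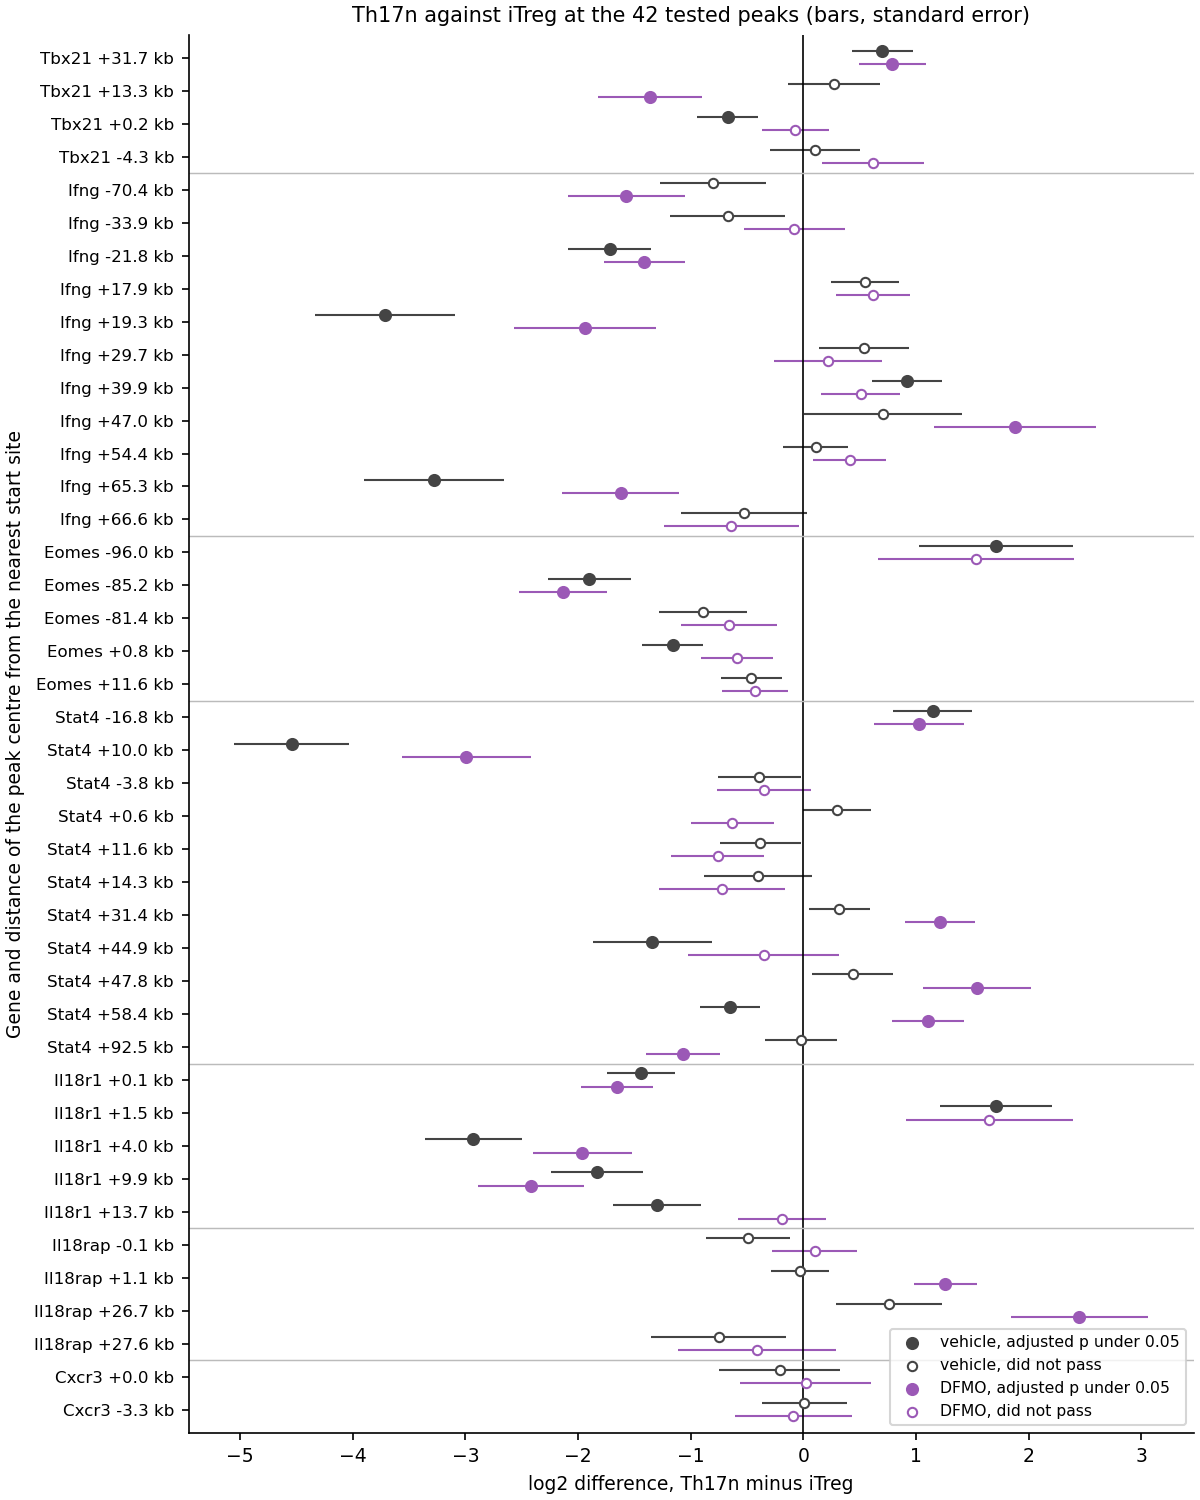
log2 difference, Th17n minus iTreg (horizontal axis, bars are standard errors), at the 42 tested peaks with vehicle (grey) and with DFMO (purple). Filled points passed an adjusted p of 0.05. The Il18r1 peaks at 0.1, 4.0 and 9.9 kb and the Ifng peaks at 19.3 and 65.3 kb lie to the left of 0 under both treatments.

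The IL-18 receptor genes stand side by side on chromosome 1, and their peaks behaved differently. Il18r1, which binds IL-18, was more open in vehicle iTreg than in vehicle Th17n at 4 of its 5 peaks. Of all tested peaks 19.3% were lower in Th17n in that contrast. Its start peak (chr1:40465519-40465931) had 13.7, 9.39 and 5.87 CPM in vehicle Th17n and 28.1, 19.8 and 22.4 in vehicle iTreg. The fates did not overlap, and Th17n was lower by a log2 value of -1.44 ± 0.30 with vehicle (adjusted p = 0.00012) and -1.65 ± 0.32 with DFMO (5.8e-05). Inside the gene at 4.0 kb (chr1:40469723-40470298) the vehicle libraries had 6.86, 2.77 and 1.17 CPM in Th17n and 21.0, 18.9 and 21.2 in iTreg. With vehicle this was the widest gap of the gene (log2 -2.93 ± 0.43, 2.8e-07). With DFMO the difference there was -1.96 ± 0.44 (0.00042). The region at 9.9 kb was lower in Th17n under both treatments (-1.83 ± 0.41, 0.00025, and -2.42 ± 0.47, 5.1e-05). The one at 13.7 kb was lower with vehicle (-1.30 ± 0.39, 0.0059), and with DFMO the difference was -0.19 ± 0.39 (0.73).

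The fifth Il18r1 peak, at 1.5 kb (chr1:40467370-40467637), had the opposite pattern. It had 12.7, 6.93 and 9.10 CPM in vehicle Th17n and 2.56, 2.79 and 2.43 in vehicle iTreg, so Th17n was higher (log2 1.71 ± 0.50, adjusted p = 0.0047). With DFMO the Th17n libraries had 2.92, 4.33 and 0.651 CPM. All 3 were below the vehicle libraries, a fall of 1.64 ± 0.53 on the log2 scale (adjusted p = 0.041). The call was lost without Th17n vehicle library 1, 2 or 3 or Th17n DFMO library 1 or 3 (0.070 to 0.15), and DESeq2 gave 0.053. In iTreg the DFMO libraries had 0.587, 0.949 and 0.879 CPM, also all below vehicle, and the change did not pass (log2 -1.58 ± 0.72, adjusted p = 0.17). The gene's 4 other tested peaks did not pass for DFMO in either fate. At 13.7 kb, however, the Th17n libraries had 2.94, 4.93 and 4.70 CPM with vehicle and 9.75, 5.19 and 15.6 with DFMO. Every DFMO library was above vehicle there, a rise that did not pass (log2 1.13 ± 0.42, adjusted p = 0.077).

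Il18rap encodes the accessory chain that the receptor needs to signal. Its most accessible peak, 1.1 kb past the start (chr1:40516156-40516722), had 13.7, 22.8 and 22.3 CPM in vehicle Th17n and 29.6, 30.3 and 32.6 in DFMO Th17n. In iTreg it had 24.0, 17.0 and 20.8 CPM with vehicle and 9.39, 17.6 and 9.96 with DFMO. The Th17n groups did not overlap and the iTreg groups did, by DFMO library 2. Neither change passed (log2 0.59 ± 0.26, adjusted p = 0.15, and -0.71 ± 0.28, adjusted p = 0.10), nor did the interaction (1.30 ± 0.38, adjusted p = 0.066). Under DFMO the fates were apart at this region (log2 1.26 ± 0.28, Th17n minus iTreg, 0.00033), whereas with vehicle the difference was -0.03 ± 0.26 (0.93). A region at 26.7 kb (chr1:40541818-40542368) had 5.85, 7.79 and 8.46 CPM in DFMO Th17n and 1.17, 0.949 and 1.47 in DFMO iTreg. It too was higher in Th17n under DFMO (log2 2.45 ± 0.61, 0.0012). With vehicle the 2 fates overlapped (0.76 ± 0.47, 0.19). The peak across the start (chr1:40515132-40515478) had group means between 6.71 and 9.53 CPM and passed in none of the 5 contrasts. Of the 4 Il18rap peaks, edgeR called 0 for DFMO in either fate, with 1 higher in Th17n and 2 lower in iTreg at an unadjusted p under 0.05, and DESeq2 called 0.

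Tbx21, the gene of the factor that defines the Th1 fate, had no peak that passed for DFMO. Its start peak (chr11:97114588-97115591) had 13.7, 16.8 and 12.9 CPM in vehicle Th17n and 10.4, 14.3 and 19.5 in DFMO Th17n. These overlapped (log2 -0.03 ± 0.29, adjusted p = 0.97). In iTreg it had 22.5, 24.3 and 20.8 CPM with vehicle and 17.6, 13.3 and 12.6 with DFMO. Here the DFMO libraries were all lower, but the change did not pass (-0.64 ± 0.28, adjusted p = 0.15). Of the 4 Tbx21 peaks, edgeR called 0 for DFMO in either fate, 0 in Th17n and 1 in iTreg (lower) had an unadjusted p under 0.05, and DESeq2 called 0.

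Between the fates the start peak of Tbx21 was lower in vehicle Th17n (-0.67 ± 0.27, adjusted p = 0.038). This call was lost without Th17n vehicle 1, 2 or 3, iTreg vehicle 2 or Th17n DFMO 1 or 2 (0.051 to 0.19), and was 0.068 with DESeq2. The most accessible Tbx21 peak was 31.7 kb past the start (chr11:97083030-97084210), with 24.5, 21.9 and 24.4 CPM in vehicle Th17n and 10.7, 14.8 and 14.6 in vehicle iTreg. Th17n was higher there with vehicle (0.70 ± 0.27, 0.034) and with DFMO (0.79 ± 0.30, 0.036). The first call was lost without Th17n vehicle 2 or 3 or iTreg vehicle 1, 2 or 3 (0.053 to 0.11), the second without Th17n DFMO 2 or 3 or iTreg DFMO 2 or 3 (0.058 to 0.31). Inside the gene at 13.3 kb (chr11:97101842-97102163), DFMO libraries had 3.57, 3.03 and 3.91 CPM in Th17n and 5.28, 11.4 and 8.79 in iTreg. That peak was lower in Th17n under DFMO (-1.36 ± 0.46, 0.017), which did not hold without Th17n DFMO library 2 (0.059) or iTreg DFMO library 2 (0.079). The fourth peak, 4.3 kb before the start, passed in none of the 5 contrasts.

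Eomes, the T-box relative of Tbx21, was more open in iTreg than in Th17n at 2 regions. The one at its gene end, 0.8 kb past the start (chr9:118478541-118479486), had 8.82, 15.4 and 16.7 CPM in vehicle Th17n and 32.7, 32.2 and 29.1 in vehicle iTreg. Th17n was lower with vehicle (log2 -1.16 ± 0.27, adjusted p = 0.00054), while with DFMO the difference was -0.59 ± 0.32 (0.14). A region 85.2 kb before the start (chr9:118392746-118393330) had 2.46 to 7.84 CPM over the 6 Th17n libraries and 13.5 to 28.0 over the 6 iTreg libraries. It differed under both treatments (-1.90 ± 0.37, 4.2e-05, and -2.13 ± 0.39, 2.3e-05). The most accessible Eomes peak, at 11.6 kb (chr9:118489451-118490123), passed in no contrast. At 96.0 kb before the start (chr9:118382113-118382339), a thinly covered region was higher in vehicle Th17n (5.45 ± 1.37 against 1.33 ± 1.13 CPM, 1.71 ± 0.68, 0.038), a call lost without Th17n vehicle 1, 2 or 3 or iTreg vehicle 1 or 2 (0.051 to 0.16).

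With DFMO the gene-end region of Eomes had 22.9, 16.6 and 11.7 CPM in iTreg. All 3 libraries were below the vehicle iTreg libraries, and the region fell by 0.90 ± 0.28 on the log2 scale (adjusted p = 0.034). That call was lost without iTreg DFMO library 3 (0.25), iTreg vehicle library 2 (0.12) or iTreg vehicle library 3 (0.079). In Th17n it had 10.4, 7.36 and 18.2 CPM with DFMO, which overlapped vehicle (-0.33 ± 0.31, 0.58). The fates were not shown to differ in this change (interaction 0.57 ± 0.42, adjusted p = 0.59).

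Ifng, the signature cytokine gene of Th1 cells, had 13 peaks, all outside the gene. The nearest to its start were 10.9 kb past it and 17.9 kb past it on one side, and 21.8 kb before it on the other. The peak at 10.9 kb was at 0.606 to 5.62 CPM in the 12 libraries and was not tested. The most accessible, at 17.9 kb (chr10:118458675-118459218), had 15.9 to 30.5 CPM in vehicle Th17n, 15.6 to 20.2 in DFMO Th17n, 6.65 to 19.4 in vehicle iTreg and 8.80 to 11.7 in DFMO iTreg. It passed in none of the 5 contrasts.

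Upstream of Ifng, the region 21.8 kb before the start (chr10:118418978-118419476) was more open in iTreg. It had 9.79, 5.39 and 2.94 CPM in vehicle Th17n and 24.5, 14.8 and 12.1 in vehicle iTreg. With DFMO it had 6.82, 8.22 and 8.46 CPM in Th17n and 25.8, 11.9 and 21.7 in iTreg. The fates did not overlap under either treatment (log2 -1.72 ± 0.37, adjusted p = 0.00014, and -1.41 ± 0.36, 0.0017). Downstream, 2 regions were low in vehicle Th17n. The one at 19.3 kb (chr10:118460132-118460561) had 0, 0.308 and 1.76 CPM there and 7.67, 8.60 and 13.1 in vehicle iTreg (-3.71 ± 0.62, 3.2e-06). The one at 65.3 kb (chr10:118506243-118506483) had 3.92, 0.616 and 0 CPM there and 9.21, 9.24 and 5.05 in vehicle iTreg (-3.28 ± 0.62, 2.9e-05). With DFMO both were again lower in Th17n (-1.94 ± 0.63, 0.012, and -1.62 ± 0.52, 0.012). The 19.3 kb call under DFMO did not hold without Th17n DFMO library 2 (0.081) or iTreg DFMO library 2 (0.072).

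Further Ifng regions differed between the fates in either direction. At 39.9 kb (chr10:118480803-118481126) vehicle Th17n libraries had 14.7, 16.8 and 17.6 CPM and vehicle iTreg libraries 9.21, 6.23 and 9.91, so Th17n was higher (log2 0.92 ± 0.31, adjusted p = 0.015, but 0.11 without iTreg vehicle library 2). At 47.0 kb Th17n was higher under DFMO (1.88 ± 0.72, 0.036), a call lost without Th17n DFMO 3 or iTreg DFMO 1 or 2 (0.060 to 0.19). At 70.4 kb before the start (chr10:118370565-118370753) Th17n was lower under DFMO (-1.57 ± 0.52, 0.015). Thus, of 11 tested Ifng peaks, 1 was higher and 3 were lower in Th17n with vehicle, and 1 was higher and 4 were lower with DFMO. Of all tested peaks 25.2% were higher and 19.3% lower with vehicle, and 22.5% and 14.7% with DFMO. Whether Ifng differed from other peaks in this was not tested.

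A single Ifng peak passed for DFMO, as a rise in Th17n. At 33.9 kb before the start (chr10:118406952-118407255) the vehicle Th17n libraries had 3.92, 3.39 and 1.76 CPM and the DFMO Th17n libraries 4.87, 14.3 and 5.86. All DFMO libraries were above vehicle, with library 2 far above the other 2. The rise of 1.53 ± 0.50 on the log2 scale (adjusted p = 0.045) became 0.45 without Th17n DFMO library 2. It was also lost without Th17n DFMO library 3, any 1 of the 3 Th17n vehicle libraries, iTreg DFMO library 3 or iTreg vehicle library 2 (0.050 to 0.25), and DESeq2 gave 0.084. In iTreg the same region had 2.05, 3.65 and 6.67 CPM with vehicle and 5.28, 7.59 and 11.4 with DFMO, which overlapped (0.94 ± 0.46, 0.21). At an unadjusted p under 0.05, 2 Ifng peaks were higher with DFMO in Th17n. The other, at 65.3 kb, rose by 2.01 ± 0.71 and did not pass (adjusted p = 0.065). At the untested 10.9 kb peak the Th17n libraries had 0.979, 1.54 and 1.17 CPM with vehicle. With DFMO they had 3.25, 5.62 and 2.60 CPM, all above vehicle. In iTreg edgeR called 0 of the 11 tested Ifng peaks for DFMO, 1 was higher at an unadjusted p under 0.05, and DESeq2 called 0.

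**Figure D5:**
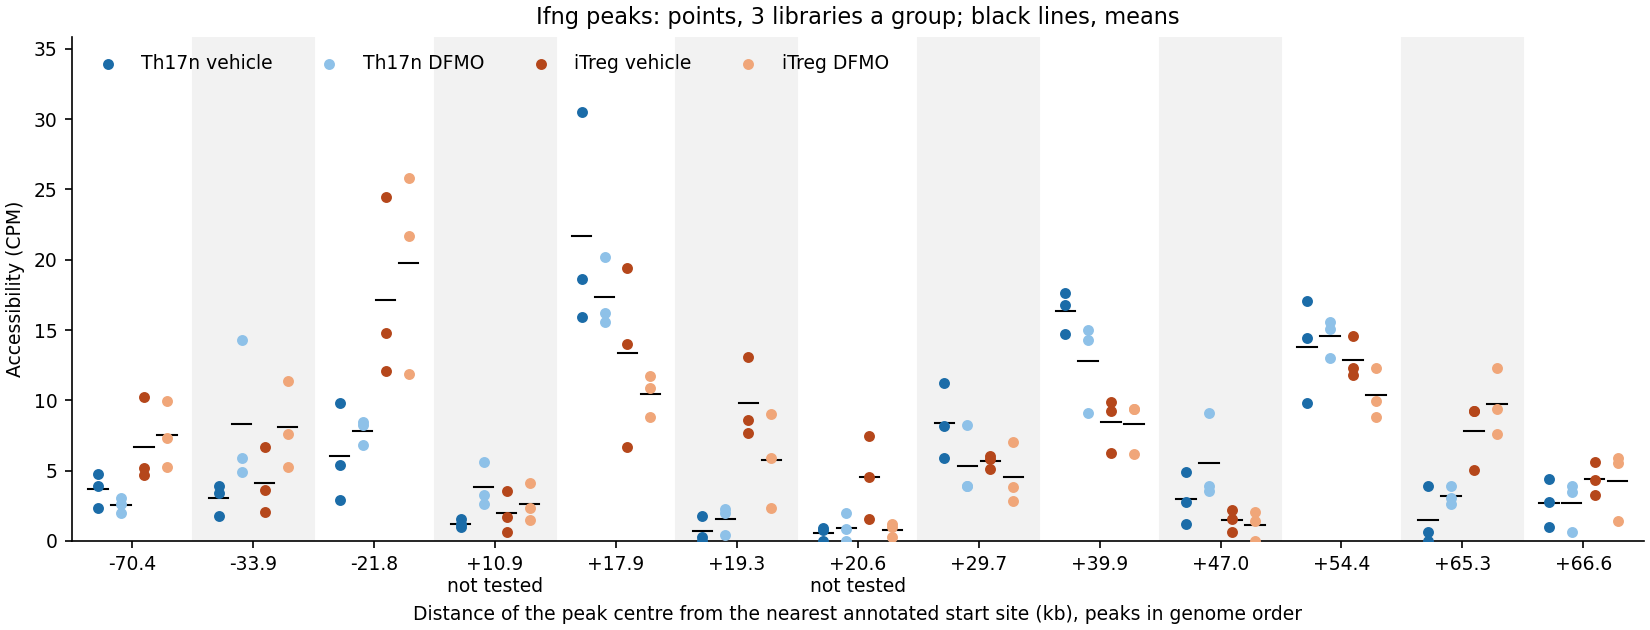
Level of each of the 13 Ifng peaks in CPM (vertical axis, from 0), in genome order, labelled by the distance in kb from the start of Ifng. Points are libraries and black lines are group means. The region at -21.8 kb is higher in both iTreg groups, and in the region at -33.9 kb 1 DFMO Th17n library, at 14.3 CPM, stands above the other 2.

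Cxcr3, the chemokine receptor gene under T-bet, had 2 thinly covered peaks. The one across its start (chrX:101734053-101734290) had group means of 3.24 to 3.88 CPM and passed in none of the 5 contrasts. The other, 3.3 kb before the start (chrX:101737269-101737663), had 3.92, 10.3 and 9.10 CPM in vehicle Th17n and 3.57, 3.89 and 2.60 with DFMO. In iTreg it had 5.11, 11.2 and 7.28 CPM with vehicle and 2.35, 2.85 and 4.69 with DFMO. In both fates every DFMO library was below every vehicle library. Neither change passed (log2 -1.29 ± 0.46, adjusted p = 0.068, and -1.19 ± 0.45, adjusted p = 0.088). With edgeR 0 of the 2 peaks were called for DFMO, while this 1 had an unadjusted p under 0.05 in each fate, and DESeq2 called 0.

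A wider list of 25 other Th1 pathway genes (IL-12 and interferon-gamma receptor chains and their kinases, transcription factors, chemokines and effector genes) held 116 peaks, of which 107 were tested. DFMO gave 2 higher and 7 lower in Th17n (8.41%, against 8.78% of all tested peaks), and 2 higher and 14 lower in iTreg (15.0%, against 8.56%). The median log2 change was -0.04 in Th17n and -0.25 in iTreg. With the animal as a replicate block, 4 rather than 2 were higher in Th17n. The Th17n share was near that of all peaks. No pathway peak passed for the interaction with edgeR or DESeq2, where edgeR called 1.31% of all tested peaks. At an unadjusted p under 0.05 there were 16 of the 107, beside 6094 of all 43726 tested peaks.

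Il12rb2, the chain that makes the IL-12 receptor responsive and signals through STAT4, had falls that passed at 1 region in Th17n and at 2 others in iTreg. Inside the gene at 28.0 kb (chr6:67347700-67348661) it fell from 76.3 ± 12 to 34.6 ± 6.58 CPM (SD, n = 3) with DFMO in Th17n (log2 -1.07 ± 0.26, adjusted p = 0.0067). DESeq2 gave 0.22 there. At 8.9 kb (chr6:67367029-67367594) it fell from 9.47 ± 5.12 to 2.43 ± 1.05 CPM in iTreg (-2.06 ± 0.45, 0.0023). Another Il12rb2 region inside the gene, at 58.2 kb, rose in iTreg (1.26 ± 0.36, 0.021), a call lost without iTreg vehicle 2 or 3 or iTreg DFMO 2 or 3 (0.067 to 0.12).

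Fasl, whose product kills Fas-bearing cells, fell in Th17n at a region 53.5 kb past its start (chr1:161734449-161735557), from 44.4 ± 5.67 to 20.4 ± 2.29 CPM (log2 -1.06 ± 0.24, adjusted p = 0.0032), and kept its call whichever library was left out. In iTreg the same Fasl region fell from 29.5 ± 10.4 to 16.8 ± 3.47 CPM (-0.81 ± 0.24, 0.029), lost without iTreg vehicle 2 (0.059) or 3 (0.34) or iTreg DFMO 1 (0.069) or 2 (0.089). Bhlhe40, a factor that supports interferon-gamma output, fell at 1 outlying region (chr6:108704361-108705086) in both fates. It went from 20.0 ± 6.17 to 7.62 ± 3.93 CPM in Th17n (-1.35 ± 0.37, 0.015) and from 21.0 ± 7.37 to 8.17 ± 5.26 in iTreg (-1.42 ± 0.36, 0.0085). The first call was lost without Th17n vehicle 2 or Th17n DFMO 1 or 3 (0.058 to 0.13), the second without iTreg vehicle 2 or iTreg DFMO 3 (0.080 and 0.12). Runx3, a partner of T-bet at Ifng, fell in Th17n at a gene end (-1.05 ± 0.27, 0.0082), which was lost without Th17n vehicle 2 or 3 or Th17n DFMO 1 (0.060 to 0.10). Another Runx3 region fell in Th17n (-1.04 ± 0.31, 0.024). Runx3 also fell in iTreg, at 2 other regions (-0.59 ± 0.16, 0.015, and -1.16 ± 0.36, 0.036). Whether these 2 calls and the Th17n call just before them held with 1 library left out is not given here.

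In iTreg the interferon-gamma receptor gene Ifngr1 fell at 13.7 kb before its start (log2 -1.07 ± 0.29, adjusted p = 0.014), lost without iTreg vehicle 3 or iTreg DFMO 1 or 3 (0.052 to 0.11). The chemokine gene Ccl5 fell at a region outside the gene (-1.41 ± 0.38, 0.015), lost without iTreg vehicle 2 or 3 or iTreg DFMO 1 or 3 (0.051 to 0.11). A thinly covered Ccl5 peak at a gene end fell in both fates. It went from 5.55 ± 2.30 to 0.867 ± 0.751 CPM in Th17n (-2.45 ± 0.75, 0.031). In iTreg it went from 4.31 ± 1.53 to 0.572 ± 0.752 CPM (-2.88 ± 0.80, 0.016). Whether either call at this gene-end peak held with 1 library left out is not given here. The gene of the other receptor chain, Ifngr2, had peaks that went opposite ways in iTreg. It rose at 8.6 kb before its start (0.97 ± 0.29, 0.030), lost without iTreg vehicle 2 or 3 or iTreg DFMO 1 or 3 (0.063 to 0.26). It fell at the gene end (chr16:91545618-91547535), from 76.0 ± 12.4 to 49.6 ± 2.80 CPM (-0.58 ± 0.16, 0.018), lost without iTreg vehicle 3 (0.12) or iTreg DFMO 1 (0.079) or 3 (0.068). In Th17n the neighbouring cytokine genes Tnf and Lta were higher at a gene end (0.83 ± 0.26, 0.032, and 0.35 ± 0.12, 0.048). Tnf was lost without Th17n vehicle 1 or 3 or Th17n DFMO 1 or 3 (0.13 to 0.24). Lta was lost without any 1 of the 6 Th17n libraries, iTreg vehicle 2 or iTreg DFMO 1 or 3 (0.050 to 0.38) and with the replicate block (0.057).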

How the data were processed

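The authors deposited raw counts, whole numbers without scaling, for 12 libraries over 48443 peaks on mm10. The submitters' processing notes name MACS2, Bowtie2, FastQC and Trimmomatic. For none of the 4 is a role, version or setting given in the sources used here. Whether peak starts count from 0 or 1 is not stated either, so coordinates are printed as deposited. All 12 count columns were mapped to a library by title, and 0 were left unused. Library totals spanned a ratio of 6.36, and the smallest limits the precision at thinly covered peaks.

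Each peak was assigned to the nearest of 21900 protein-coding gene models of GRCm38.p6 within 100 kb, which placed 46093 peaks. Distances run from the peak centre to the nearest start in the RefSeq promoter table. CPM uses the library total. The test was that of edgeR 4.0.16 under R 4.3.3 (filterByExpr for the 4 groups with a minimum count of 10, TMM factors, glmQLFit and glmQLFTest) in 1 model of 4 group means over all 12 libraries, with Benjamini-Hochberg adjustment over 43726 peaks. The code was tested on simulated data. Log2 CPM for the correlations uses a prior count of 2, while log2 changes keep the default prior count of glmQLFit. SE is the log2 change divided by the square root of F. P-values rest on 3 animals a group. Calls were repeated with DESeq2 1.42.0, RLE factors, library totals alone, no filter, the replicate block, each library left out, only the groups compared, libraries thinned to 1020937 counts and a window of 20 kb. TMM-scaled sums were added after seeing the data.

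Animal numbers pair the libraries per the labels. Over 18 same-animal pairs the correlation of deviations from group means ran from -0.0549 to 0.0747, and 7 of 12 libraries correlated best with one of their own animal. The log2 CPM of libraries in a group correlated at 0.883 to 0.960. Their counts differed by a chi-square of at least 2.04 per degree of freedom, so no library was counted as a repeat of another.

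The members, the lists and the tests were chosen with earlier results of these data known. Named peaks are all those with an adjusted p under 0.05 in any of the 5 contrasts, plus the peak nearest a gene end and the most accessible peak of each gene. Of the pathway genes, up to 4 for each direction of the DFMO contrasts with the smallest adjusted p are named. Other peaks named were chosen after their values were seen. A check of the Th17n label against marker genes is not reported here.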

Additional observations from a re-analysis of the deposited data

Results flagged for a closer look

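The Stat4 region 58.4 kb from its nearest start (chr1:52066325-52067032) passed the test of a difference in DFMO change between the 2 fates, and it is listed here for that reason. It was the 1 such call among the 42 peaks (2.38%), against 1.31% of all tested peaks. The DFMO change in Th17n minus that in iTreg was 1.76 ± 0.41 on the log2 scale (edgeR quasi-likelihood test, adjusted p = 0.018). All 3 DFMO iTreg libraries were below the 3 vehicle iTreg libraries, while in Th17n the groups overlapped. The adjusted p was 0.0065 with the replicate block and 0.062 to 0.093 in the 6 cases where leaving out 1 library ended the call. It was 0.18 when all libraries were thinned to the smallest total, which also ended the call.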

How the results depend on the processing

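Of 1080 repeats of single calls, 908 kept direction and threshold, 172 no longer passed and 0 reversed. By setting, the calls lost were 10 of 58 with DESeq2, 3 with the replicate block, 4 with RLE factors, 4 with library totals, 5 without the filter, 122 of 695 with 1 library left out, 3 of 54 with only the groups compared, and 21 of 41 after thinning. Where fewer than 58 are given, the other calls had no value in that fit and count neither as kept nor as lost. After thinning, 20 of the 58 calls were kept. Among these 58 calls the block ended the 3 named beside the results and changed no other call. It moved pathway peaks higher with DFMO in Th17n from 2 to 4 and lower in iTreg from 14 to 15. The counts of Th1 gene peaks that moved by over 1.5 times were as follows. For DFMO in Th17n, higher went from 1 to 0 (DESeq2, no filter, thinning, 20 kb window), and lower from 2 to 1 (DESeq2, thinning). For DFMO in iTreg, higher went from 0 to 1 (RLE), and lower from 5 to 3 (DESeq2) or 1 (thinning). Th17n against iTreg with vehicle had 5 higher, then 1 (thinning) or 3 (20 kb), and 13 lower, then 6 (thinning). With DFMO it had 8 higher, then 5 (groups compared only) or 4 (thinning), and 11 lower, then 5 (thinning) or 7 (20 kb). The interaction had 1, then 0 (thinning). For the pathway genes, higher with DFMO in Th17n went from 2 to 1 (DESeq2, RLE, totals, no filter) or 7 (groups compared only), and lower from 7 to 2 (thinning). In iTreg thinning took 2 higher to 0 and 14 lower to 2, between the fates with vehicle 16 higher to 9 and 23 lower to 10, and with DFMO 16 lower to 3. With only the groups compared the last count was 7. Leaving out 1 library gave these ranges for Th1 gene peaks, higher then lower: 0 to 1 and 1 to 3 for DFMO in Th17n, 0 to 1 and 1 to 7 in iTreg, 2 to 5 and 11 to 16 between the fates with vehicle, 4 to 8 and 9 to 12 with DFMO, and 0 to 2 and 0 for the interaction. For pathway peaks they were 0 to 3 and 2 to 10, 0 to 4 and 3 to 21, 12 to 16 and 14 to 27, 13 to 24 and 8 to 16, and 0 to 1 and 0. The Tbx21 sum in vehicle Th17n moved from 52.6 to 50.8 CPM with TMM scaling. Thinning leaves fewer counts and fewer tested peaks. Why the other settings moved counts was not tested. The interaction could not be run with 2 groups. The size of change detectable at a median of 18 counts a peak was not estimated.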

Other observations

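As a description, with no test, the genes whose summed accessibility was most like that of a Th1 gene over the 12 libraries were found among 11004 genes. Libraries of 1 group share their treatment, so the values below mix differences between groups and between libraries. For Stat4 they were Nectin2 (Pearson r = 0.96), Cdh15 (0.95) and Rabgap1l (0.94). For Tbx21 they were Crabp2 (0.91), Sema7a (0.91) and Jag2 (0.90). For Ifng they were the ribosomal protein genes Rplp1 (0.91) and Rps15 (0.91), and Cblc (0.90).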
